A study of Arabidopsis thaliana with 12 samples.

Results

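Rosettes of Arabidopsis thaliana plants that overexpressed the iron-response peptide gene IMA1 and had been moved to Fe-deficient medium were compared with rosettes of control plants that overexpressed the fluorescent protein EYFP and stayed on full medium. The comparison holds 4 of the 12 samples of the series, with 2 libraries of each group. The IMA1 OE plants carried 35spro:IMA1 ORF (line #7-4) and the EYFP OE plants carried 35spro:EYFP, both in the Columbia-0 background and both under the constitutive 35S promoter. Plants of both lines grew for 10 days on full ES medium and were sampled 72 hours after transfer. The IMA1 OE plants were transferred to ES medium that lacked Fe and held 100 µM FerroZine, which binds Fe, and the EYFP OE plants to full ES medium. Line and medium therefore change together and their parts in any difference cannot be told apart. The IMA1 transgene was represented by 1 line, and EYFP OE is named here without a line number. Whole rosettes were sampled, so that fewer cells of a type and less RNA per cell cannot be told apart either. Of the 33607 gene rows in the authors' table, 18691 reached a normalized value of 1 in 2 or more of the 4 libraries and were tested, with the construct rows left out.

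Iron is a cofactor of photosynthetic electron transport, of chlorophyll and heme synthesis and of many enzymes that handle reactive oxygen. When it is scarce, plants raise uptake at the root surface through ferric reduction and the transporter IRT1, and move iron between organs bound to nicotianamine or citrate. In leaves they also draw down the storage protein ferritin. Small peptides of the IMA family act upstream of the uptake regulators, and the peptide encoded by AT1G47400 is the one overexpressed here. Iron and copper nutrition meet in the superoxide dismutases, enzymes that remove superoxide: FSD1 uses Fe, whereas CSD1 and CSD2 use copper and zinc.

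Construct rows differed by line, following the labels. That of IMA1 had normalized values of 455 and 381 in the IMA1 OE libraries, against 0.09 and 0.12 in the EYFP OE libraries, and the EYFP construct row had 0.05 and 0.12 in IMA1 OE, against 277 and 259 in EYFP OE. The headings of the IMA1 OE columns in the authors' table read +Fe, whereas the sample labels tie these columns to the Fe-deficient rosettes. The labels were followed, and this mismatch touches every IMA1 OE value below. Leaf genes led the libraries: the summed normalized values of 5 leaf markers (RBCS1A, RCA, CA1, LHCB2.1 and PSBO1) were 25100 and 20800 in IMA1 OE, against 24600 and 24200 in EYFP OE. The 11 root markers summed to 4.19 and 6.92 in IMA1 OE, against 5.25 and 8.76 in EYFP OE, and 5 flower markers to 0.63 and 1.37 in IMA1 OE, against 0.64 and 1.37 in EYFP OE. The median absolute log2 difference between replicates over tested genes was 0.16 in IMA1 OE and 0.19 in EYFP OE, and replicates differed by more than 2-fold in 394 genes in IMA1 OE and in 607 genes in EYFP OE. The RNA integrity number of the leaf samples ran from 8.3 to 8.7, per the labels. No label says that the 2 libraries of a group came from separate plantings, so p-values measure only the spread between these samples, which may be technical.

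A single gene passed the test at an adjusted p under 0.05 (limma on log2(value + 1), Benjamini-Hochberg over all tested genes), 0.00535% of those tested. This was AT3G01345 (chromosome 3, 129138 to 130749 in TAIR10.1), annotated as an uncharacterized protein. Its normalized value was 0.07 and 0.17 in the IMA1 OE libraries, against 139 and 129 in the EYFP OE libraries. Both IMA1 OE libraries lay close to the lowest values of the table and the groups were far apart. The gene met the filter only through the EYFP OE libraries, and its call held without the filter. The log2 change was -6.91 (SE 0.12, adjusted p = 0.0017), and it was -9.29 with a pseudocount of 0.1 in place of 1. The call was lost when either IMA1 OE library was left out, with an adjusted p of 0.107 without replicate 1 and 0.0907 without replicate 2. The same locus stood at 0.55 and 0.05 in IMA1 OE rosettes on full medium. In roots it was 0.21 and 0.05 in Fe-deficient IMA1 OE, against 156 and 139 in EYFP OE on full medium. The IMA1 OE libraries named here thus stood near 0 for this gene in both organs. A second uncharacterized locus, AT5G15360, showed the same arrangement at lower levels, with 0.10 and 0.02 in IMA1 OE rosettes, against 19.7 and 10.9 in EYFP OE rosettes (log2 change -3.89, adjusted p = 0.31). This locus too met the filter only through the EYFP OE libraries. In roots it had 0.18 and 0.32 in Fe-deficient IMA1 OE, against 47.8 and 37.3 in EYFP OE.

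At an unadjusted p under 0.05, 637 genes were higher in IMA1 OE (3.41% of those tested) and 329 were lower (1.76%). Together they made up 5.17% of the tested genes. The groups did not overlap in 2576 genes that were higher in IMA1 OE (13.8%) and 3636 that were lower (19.5%). The median log2 change over all tested genes was -0.03, with 8070 genes higher in IMA1 OE and 10620 lower. The authors' deposited table gave a p-value under 0.05 to 230 genes that were higher (0.684% of all gene rows) and 89 that were lower (0.265%), and 131 of these 319 also had an unadjusted limma p under 0.05. Values below are read against these shares. The gene lists used below were chosen with earlier results of these data known. Their counts and medians therefore describe the values and give no independent support. Apart from AT3G01345, no gene of the rosette comparison named here passed the adjusted threshold with all 4 libraries.

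The overexpressed gene was far higher in IMA1 OE rosettes. AT1G47400 (chromosome 1, 17385707 to 17386485) had normalized values of 414 and 354 in IMA1 OE, against 8.87 and 2.0 in EYFP OE. Both IMA1 OE libraries lay far above both EYFP OE libraries, while the EYFP OE libraries differed severalfold from each other. The mean was 384 ± 42.0 in IMA1 OE and 5.43 ± 4.86 in EYFP OE (SD, n = 2 each), a 70.7-fold difference of means. The log2 change was 6.14 (SE 0.58) with an adjusted p of 0.467. It passed the threshold without EYFP OE replicate 1 (log2 change 7.00, adjusted p = 0.0339) and without EYFP OE replicate 2 (5.28, adjusted p = 0.0462). How reads were divided between this gene and its construct row is not stated in the sources used here.

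The other genes of the iron peptide list, AT1G47395 and AT2G30766, lay on the opposite side. AT2G30766 had normalized values of 0.13 and 2.59 in IMA1 OE, against 44.8 and 8.90 in EYFP OE (log2 change -3.40, SE 0.92, unadjusted p = 0.0166, adjusted p = 0.805). Without 1 library the log2 change of AT2G30766 lay between -4.51 and -2.30. AT1G47395 had 0.80 and 2.60 in IMA1 OE, against 11.1 and 4.57 in EYFP OE (log2 change -1.69, SE 0.51, unadjusted p = 0.0246). For both loci the groups did not overlap and EYFP OE replicate 1 was the highest library. In IMA1 OE rosettes on full medium AT1G47395 stood at 0.20 and 0.20 and AT2G30766 at 0.03 and 0.16. That table was normalized separately and shares the EYFP OE libraries, so its values are set beside these without a test.

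The copper and zinc superoxide dismutases and their chaperone stood together, several-fold higher in IMA1 OE. CSD1, the cytosolic enzyme (chromosome 1, 2827060 to 2829315), had normalized values of 427 and 419 in IMA1 OE, against 127 and 124 in EYFP OE. CSD2, the chloroplast enzyme (chromosome 2, 12014412 to 12016569), had 747 and 792 in IMA1 OE, against 170 and 210 in EYFP OE. CCS, the chaperone that delivers copper to both (chromosome 1, 4267074 to 4268982), had 123 and 132 in IMA1 OE, against 38.3 and 35.7 in EYFP OE. In all 3 genes the IMA1 OE libraries lay well apart from the EYFP OE libraries and the replicates lay close together. The differences of means were 3.38-fold for CSD1, 4.05-fold for CSD2 and 3.44-fold for CCS. The log2 changes were 1.75 (SE 0.12) for CSD1, 2.02 (SE 0.16) for CSD2 and 1.76 (SE 0.11) for CCS. Their unadjusted p-values were 4.42e-05, 0.000105 and 3.97e-05, and their limma adjusted p-values 0.275, 0.326 and 0.275. Without any 1 of the 4 libraries the log2 change stayed between 1.73 and 1.77 for CSD1, 1.86 and 2.17 for CSD2, and 1.71 and 1.81 for CCS. In the authors' deposited table, whose p-values carry 2 decimals, all 3 were listed with a p of 0.

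FSD1, the Fe-dependent superoxide dismutase of the chloroplast and cytosol (chromosome 4, 12884300 to 12887011), lay the other way. Its normalized values were 55.9 and 125 in IMA1 OE, against 391 and 664 in EYFP OE, and the groups did not overlap. The mean was 90.7 ± 49.2 in IMA1 OE and 527 ± 193 in EYFP OE (SD, n = 2 each), 5.82-fold lower in IMA1 OE. The log2 change was -2.59 (SE 0.47, unadjusted p = 0.0036, limma adjusted p = 0.648). The remaining members of the family differed little. FSD2 and FSD3, the other plastid Fe-dependent forms, had log2 changes of -0.22 and -0.13. CSD3, a further copper and zinc form, had -0.06, and MSD1, the mitochondrial manganese form, had -0.12. Of the 8 members of the list, 3 had an unadjusted p under 0.05 in the higher direction and 1 in the lower, and the list median was -0.09. Over all tested genes the shares were 3.41% in the higher direction and 1.76% in the lower.

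On full medium the same 4 genes showed a wider spread between the IMA1 OE libraries. CSD1 had 415 and 220 there, CSD2 had 603 and 368, and CCS had 111 and 61.7. FSD1 had 179 and 681, below and above both EYFP OE libraries of the Fe-deficient comparison. These values come from the separately normalized full-medium table with the shared EYFP OE libraries, and no difference between the media was tested.

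**Figure D1:**
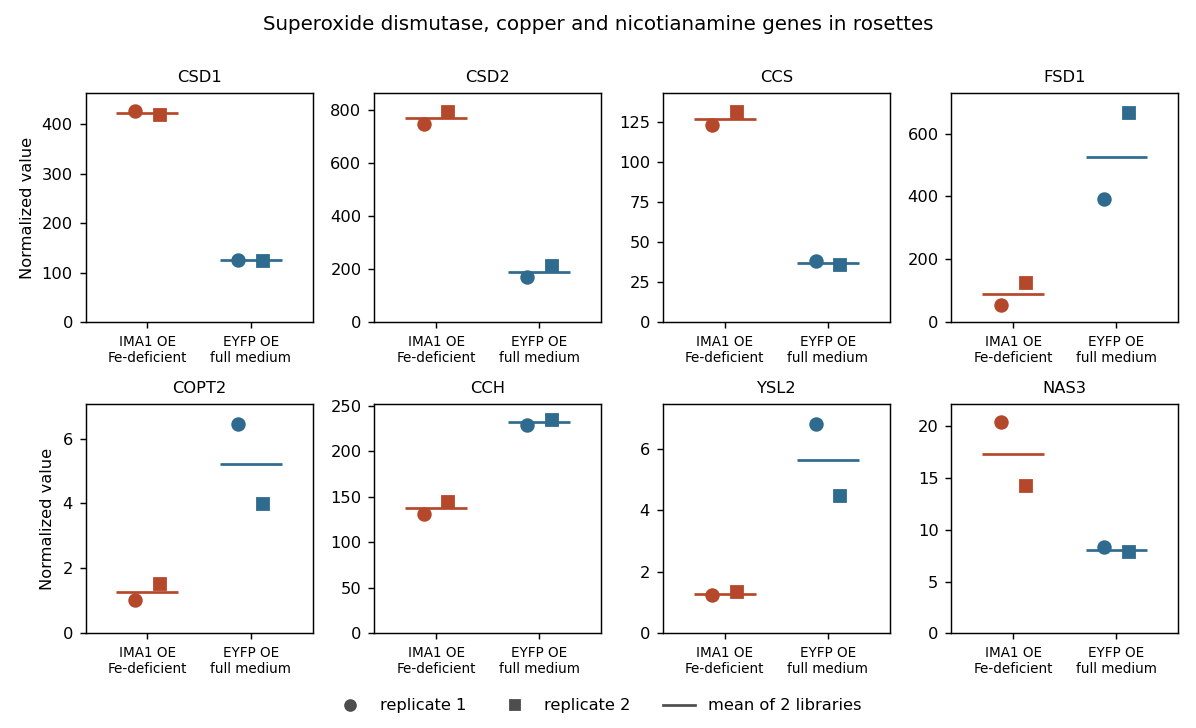
Normalized values (vertical axes, no unit, starting at 0) of 8 genes in the 2 IMA1 OE Fe-deficient and the 2 EYFP OE full-medium rosette libraries; points are libraries and lines are means of 2. CSD1, CSD2, CCS and NAS3 were higher in both IMA1 OE libraries, and FSD1, COPT2, CCH and YSL2 were lower in both.

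CSD1, CSD2 and CCS are known targets of the microRNA miR398, which in Arabidopsis is made when copper is scarce under the transcription factor SPL7 and lowers all 3 transcripts. Stretches were searched only in CSD1, CSD2, CCS, FSD1 and CSD3, so no share over other genes can be given. The mature sequences and the best matching stretches of the 3 transcripts are shown as a description of the sequences only. They were read from the RefSeq genome and annotation (TAIR10.1), 5′ to 3′ and with T for U. In the microRNAs the capitals mark the seed, bases 2 to 8, which miR398a (chromosome 2) and miR398b and miR398c (both chromosome 5) share. In the transcripts the capitals mark bases that pair with the microRNA.
miR398a-3p: tGTGTTCTcaggtcacccctt
miR398b-3p and miR398c-3p: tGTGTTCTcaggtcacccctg
CSD1: AAGGGGTttCCTGAGAtCACA
CSD2: tgcGGGTGACCTGgGaAACAtA
CCS: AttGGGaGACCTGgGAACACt

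Counted without gaps, the CSD1 stretch pairs with miR398a at 18 of 21 bases and lies outside the coding sequence, across an intron, with outer positions 2827177 and 2827685 on the plus strand of chromosome 1. The CCS stretch pairs at 16 of 21 bases and is coding (chromosome 1, 4267521 to 4267541, minus strand). The CSD2 stretch is shown with 1 unpaired base of the transcript, which gives 16 of 21 paired bases with miR398c (chromosome 2, 12015572 to 12015593, plus strand), and its best ungapped stretch pairs at 13 of 21. The best ungapped stretches of FSD1 and CSD3 pair at 15 and 13 of 21 bases. With 1 unpaired transcript base in every gene the best counts were 18 for CSD1, 17 for CCS, 16 for CSD2, 14 for FSD1 and 13 for CSD3. With the gap the 3 genes thus had the highest counts of the genes searched, whereas without it CSD2 lay below FSD1 and level with CSD3. G:U pairs were not counted. The MIR398c primary transcript (AT5G14565), chosen later for its role, had normalized values of 2.66 and 5.39 in IMA1 OE, against 8.69 and 5.69 in EYFP OE (log2 change -0.74, unadjusted p = 0.0874). The mature microRNA was not measured by these libraries, and its part in the values was not tested.

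The promoter of FSD1 is printed for the motif GTAC, the core of the element bound by SPL7, which reads the same on both strands. The window holds the 250 bases before the annotated start on the minus strand (TAIR10.1, chr4:12887012-12887261), with GTAC in capitals.
FSD1 promoter: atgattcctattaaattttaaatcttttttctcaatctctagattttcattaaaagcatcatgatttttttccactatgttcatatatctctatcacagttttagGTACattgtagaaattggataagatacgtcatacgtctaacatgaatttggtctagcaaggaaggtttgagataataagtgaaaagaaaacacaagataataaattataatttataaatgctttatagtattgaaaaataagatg

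The motif occurs once there, and 34.3% of 27437 promoter windows of the same length hold it. Of the 14 genes of the superoxide dismutase and copper lists, 4 hold it in this window: FSD1, CSD1, CCS and CSD3. A match of 4 letters is a description of the sequence only.

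Among copper genes the picture was narrower. COPT2, a copper uptake transporter (chromosome 3), had normalized values of 1.02 and 1.53 in IMA1 OE, against 6.45 and 3.99 in EYFP OE, without overlap (log2 change -1.43, SE 0.26, unadjusted p = 0.00336). SPL7 itself stood between 10.3 and 12.3 in all 4 libraries. COPT1, a further uptake transporter, had a log2 change of 0.14, and COPT5, which exports copper from the vacuole, one of 0.00. The copper reductase genes FRO4 and FRO5 stayed below the filter in all libraries, with values of at most 0.88. CCH and ARPN were looked up after the data had been seen. CCH, a cytosolic copper chaperone, had 132 and 144 in IMA1 OE, against 229 and 235 in EYFP OE (log2 change -0.75, SE 0.12, unadjusted p = 0.00213). ARPN, which encodes the copper protein plantacyanin, had 14.03 and 18.0 in IMA1 OE, against 10.8 and 11.3 in EYFP OE (log2 change 0.49, unadjusted p = 0.0272). Of the 11 genes looked up in this way, these were the ones with an unadjusted p under 0.05, and the other 6 tested genes missed it.

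Most uptake genes of the root response had values near 0 in rosettes. Of the 14 genes of the iron acquisition list 5 passed the filter, and 11 were higher in IMA1 OE, against 8070 of all 18691 tested genes. The list median was 0.15, which became -0.10 over the tested members alone. FRO2, the ferric reductase of the root surface, had normalized values of 1.53 and 1.23 in IMA1 OE, against 0.42 and 0.64 in EYFP OE (log2 change 0.64, unadjusted p = 0.0243). It met the filter only through the IMA1 OE libraries, where it was higher, so this p-value gives no separate support. IRT1, the main Fe transporter of the root, had 1.25 and 0.86 in IMA1 OE, against 0.01 and 0.01 in EYFP OE. CYP82C4, an enzyme of coumarin synthesis, had 1.52 and 0.73 in IMA1 OE, against 0.01 and 0.01 in EYFP OE. AT3G12900, annotated as an oxygenase of the 2-oxoglutarate and Fe(II)-dependent superfamily, had 0.70 and 0.48 in IMA1 OE, against 0.19 and 0.14 in EYFP OE. In these 4 genes every IMA1 OE library lay above both EYFP OE libraries, at values near 1 or under it. Of the 14 listed genes 8 were higher without overlap, 1 was lower without overlap and 5 overlapped. Over all tested genes 13.8% were higher without overlap, a share that does not cover the 9 listed genes below the filter. On full medium the IMA1 OE libraries had 0.11 and 0.41 for IRT1 and 0.21 and 0.25 for CYP82C4. Of the root marker sums given above, NRT2.1 made up 1.65 and 5.23 in IMA1 OE, against 2.55 and 6.92 in EYFP OE. The other 10 root markers were below the filter in rosettes. CASP1, for example, had 0.60 and 0.11 in IMA1 OE rosettes and 82.84 and 73.95 in Fe-deficient IMA1 OE roots. WOX5 lay closer, with 0.63 and 0.55 in these rosettes and 2.87 and 1.56 in these roots. The part of adhering root tissue in the rosette values was not tested.

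Regulators of iron uptake lay on both sides of 0. Of 15 genes 10 passed the filter, 8 were higher and 7 lower, the list median was 0.00, and no tested member had an unadjusted p under 0.05. FRU, the bHLH factor also known as FIT, had 1.12 and 1.34 in IMA1 OE, against 1.49 and 1.07 in EYFP OE. PYE, a bHLH repressor of iron distribution genes, had 5.85 and 4.85 in IMA1 OE, against 9.92 and 6.40 in EYFP OE (log2 change -0.51, unadjusted p = 0.0826). BHLH100, one of 4 related bHLH genes that partner FRU, had 0.52 and 0.24 in IMA1 OE, against 2.56 and 0.19 in EYFP OE, and its relatives BHLH38, BHLH39 and BHLH101 also peaked in EYFP OE replicate 1 at 0.77, 0.94 and 1.57. ILR3, a bHLH activator upstream of these genes, had 66.9 and 61.4 in IMA1 OE, against 58.3 and 59.8 in EYFP OE. The ubiquitin ligase gene BTS had 18.9 and 19.7 in IMA1 OE, against 30.1 and 17.5 in EYFP OE. EYFP OE replicate 1 was thus the highest of the 4 libraries for PYE, BTS, FRU, the 4 related bHLH genes and AT2G30766, a pattern read off after the values had been seen. The list as a whole did not show it. URI and ILR3 were lowest in that library, at 27.6 and 58.3. BHLH11, BHLH34, BHLH104, BHLH115, AT1G74770 and AT1G18910 peaked in an IMA1 OE library. How many of all tested genes peaked in EYFP OE replicate 1 was not counted.

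Among genes that move iron within the plant, YSL2 and a pair of nicotianamine synthase genes, NAS3 and NAS4, stood apart. The list of 24 distribution genes had 22 tested members, of which 2 were higher and 2 lower at an unadjusted p under 0.05, with a list median of -0.08. Over all tested genes 3.41% were higher and 1.76% lower at such a p. YSL2, a transporter of metal nicotianamine complexes (chromosome 5), had normalized values of 1.24 and 1.33 in IMA1 OE, against 6.81 and 4.46 in EYFP OE (log2 change -1.52, SE 0.22, unadjusted p = 0.0013). The NAS genes encode nicotianamine synthases. NAS3 had 20.4 and 14.2 in IMA1 OE, against 8.31 and 7.87 in EYFP OE (log2 change 0.99, SE 0.19, unadjusted p = 0.00482). NAS4 had 10.9 and 12.4 in IMA1 OE, against 23.3 and 18.0 in EYFP OE (log2 change -0.77, SE 0.17, unadjusted p = 0.00711). The groups did not overlap in any of these 3 genes, and NAS3 and NAS4 lay in opposite directions. NAS1 overlapped between groups, with 22.3 and 15.6 in IMA1 OE, against 22.6 and 18.6 in EYFP OE (log2 change -0.13, unadjusted p = 0.576), and NAS2 stayed below the filter, with at most 0.40 in any library. NRAMP1, a manganese and iron transporter, had 30.1 and 31.6 in IMA1 OE, against 21.4 and 26.2 in EYFP OE (log2 change 0.37, unadjusted p = 0.048). OPT3, which loads iron into the phloem, overlapped between groups, with 32.4 and 52.0 in IMA1 OE, against 70.8 and 43.3 in EYFP OE. The leaf ferric reductase genes FRO6, FRO7 and FRO8 each had a log2 change of 0.12 with overlapping groups. IRT3, a zinc and iron transporter of the zinc list, had 3.79 and 5.70 in IMA1 OE, against 13.99 and 12.4 in EYFP OE (log2 change -1.32, SE 0.20, unadjusted p = 0.00164), and the other 6 tested genes of that list had an unadjusted p above 0.05.

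**Figure D2:**
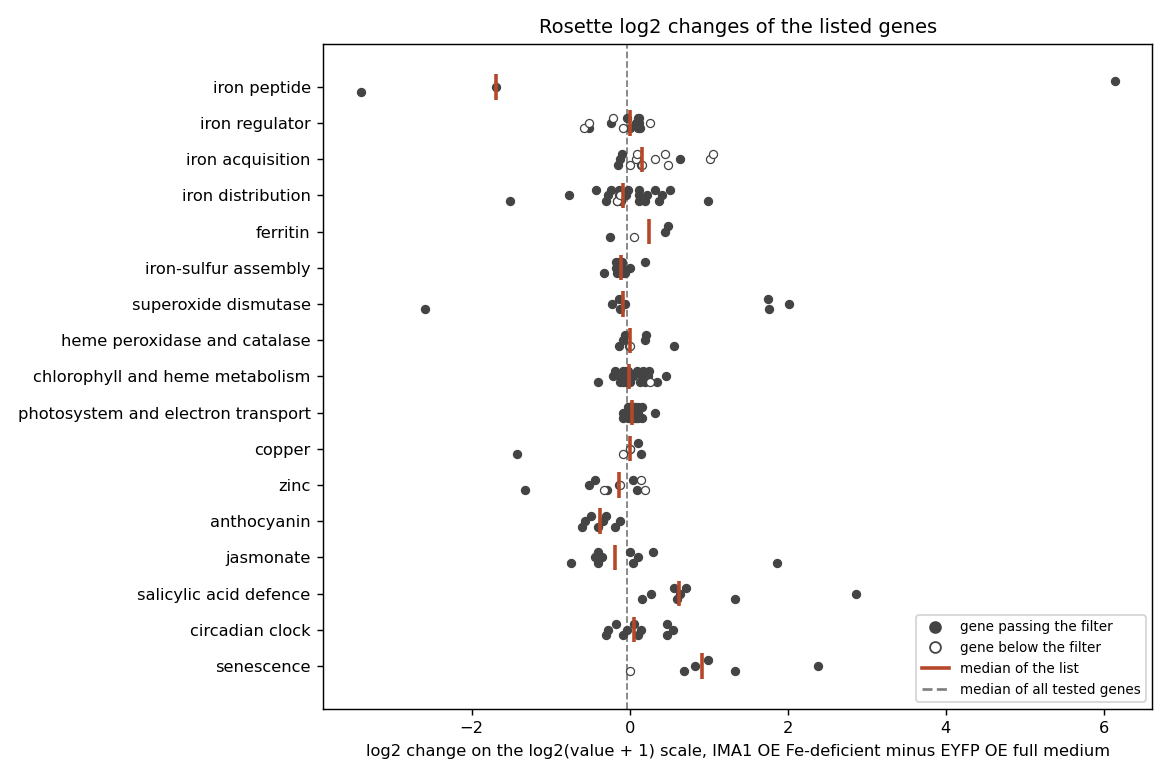
Log2 change of each listed gene between IMA1 OE Fe-deficient and EYFP OE full-medium rosettes (horizontal axis), by gene list (vertical axis); filled points passed the filter on low values, open points did not, short lines are list medians and the dashed line is the median of all tested genes, -0.03. Most lists centre near 0, the superoxide dismutase genes split to both sides, and the salicylic acid defence and senescence lists lie to the right, with medians of 0.62 and 0.91.

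Ferritin, the plastid store of iron, differed more between replicates than between groups. FER1 had normalized values of 249 and 124 in IMA1 OE, against 58.9 and 281 in EYFP OE (log2 change 0.45, SE 0.82, unadjusted p = 0.609). FER3 had 81.2 and 53.1 in IMA1 OE, against 70.5 and 86.9 in EYFP OE, and FER4 had 112 and 76.7 in IMA1 OE, against 46.7 and 92.6 in EYFP OE. The groups overlapped in all 4 ferritin genes, and the list median of 0.25 ran from -0.24 to 0.59 without 1 library, the lowest without EYFP OE replicate 1. In IMA1 OE rosettes on full medium FER1 stood at 1265 and 994, FER3 at 202 and 215 and FER4 at 175 and 179. These lay above all 4 libraries of the Fe-deficient comparison, in a table normalized separately, and the difference was not tested. Within EYFP OE, replicate 1 had the lowest FER1 value and the highest AT2G30766 and BHLH100 values of the 4 libraries, genes picked after the values had been seen. FER3 was lowest in IMA1 OE replicate 2.

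Iron-using pathways of the chloroplast differed little. All 26 photosystem and electron transport genes passed the filter, and their log2 changes lay between -0.09 and 0.32 with a median of 0.03 and none at an unadjusted p under 0.05. Some of these high genes had values shared exactly between libraries, which could hide differences. PSAL, for example, was at 2472.3 in both IMA1 OE libraries and in EYFP OE replicate 1. PSAD1, a photosystem I subunit, had 1622 and 1615 in IMA1 OE, against 1453 and 1654 in EYFP OE. FD2, the main leaf ferredoxin, had 2567 and 2000 in IMA1 OE, against 2041 and 2155 in EYFP OE. Of 24 chlorophyll and heme genes 12 were higher and 12 lower, with a median of -0.01. FC1, a ferrochelatase that puts iron into heme, was the one member with an unadjusted p under 0.05, with 36.4 and 40.6 in IMA1 OE, against 28 and 27.2 in EYFP OE (log2 change 0.46, SE 0.11, unadjusted p = 0.0115). The highest values were those of CRD1, a diiron cyclase of chlorophyll synthesis, with 1177 and 1227 in IMA1 OE, against 828 and 1377 in EYFP OE.

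Genes of iron-sulfur cluster assembly leaned slightly low, with 14 of 15 lower in IMA1 OE and a median of -0.11. Over all tested genes 10620 of 18691 were lower. The log2 changes of the list lay between -0.33 and 0.20, and 6 of the 15 were lower without overlap, against 19.5% of all tested genes. The member with an unadjusted p under 0.05 was ABCI7, a scaffold subunit of the plastid SUF machinery also known as SUFD, with 44.2 and 51.0 in IMA1 OE, against 59.9 and 59.6 in EYFP OE (log2 change -0.33, unadjusted p = 0.0487). ABCI8, the partner scaffold also known as SUFB, was the exception, with 125 and 116 in IMA1 OE, against 95.6 and 116 in EYFP OE (log2 change 0.20). Heme peroxidases and catalases overlapped in 7 of 8 genes. CAT3, a catalase, had 1783 and 1120 in IMA1 OE, against 1424 and 649 in EYFP OE, so the replicates differed more than the groups.

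Defence genes of the salicylic acid pathway were higher in IMA1 OE in 8 of 8 members, 7 of them without overlap, and 3 had an unadjusted p under 0.05. Over all tested genes 8070 of 18691 were higher, 13.8% were higher without overlap, and 3.41% had such a p in that direction. PR1, a pathogenesis-related protein used as the marker of the pathway (chromosome 2), had normalized values of 67.9 and 61.5 in IMA1 OE, against 2.77 and 20.7 in EYFP OE (log2 change 2.86, SE 0.84, unadjusted p = 0.0223). WRKY70, a transcription factor of the pathway, had 210 and 97.8 in IMA1 OE, against 62.0 and 51.3 in EYFP OE (log2 change 1.33, SE 0.39, unadjusted p = 0.0214). EDS1, a regulator upstream of salicylic acid, had 20.8 and 23.2 in IMA1 OE, against 12.1 and 16.4 in EYFP OE (log2 change 0.60, SE 0.18, unadjusted p = 0.0219). PR1 ranged widely between the EYFP OE replicates, and its log2 change lay between 1.6 and 4.12 without 1 library. WRKY70 ranged widely between the IMA1 OE replicates, and its log2 change lay between 0.78 and 1.88. ICS1, the synthase of the hormone, overlapped between groups, with 6.90 and 11.6 in IMA1 OE, against 5.82 and 10.8 in EYFP OE. The list median was 0.62, and it lay between 0.32 and 0.83 without any 1 library. On full medium the IMA1 OE rosettes had 112 and 92.3 for PR1 and 106 and 63.2 for PR2, a glucanase, which had 12.8 and 25.3 in the Fe-deficient IMA1 OE rosettes.

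Senescence genes showed a like arrangement with larger scatter. The list had 5 tested members, all higher in IMA1 OE, 3 of them without overlap and at an unadjusted p under 0.05. The shares over all tested genes are those given for the defence list. SAG13, an oxidoreductase gene induced in ageing leaves, had 13.6 and 7.79 in IMA1 OE, against 0.45 and 2.22 in EYFP OE (log2 change 2.39, SE 0.47, unadjusted p = 0.00478). NAP, a NAC transcription factor of leaf senescence, had 17.1 and 30.5 in IMA1 OE, against 6.43 and 11.1 in EYFP OE (log2 change 1.33, SE 0.37, unadjusted p = 0.0178). SEN1, a gene also induced by darkness, had 18.7 and 33.8 in IMA1 OE, against 9.41 and 15.8 in EYFP OE (log2 change 0.99, unadjusted p = 0.0482). SAG12, the cysteine protease taken as the defining marker of developmental senescence, was listed at 0.01 in all 4 libraries. The list median of 0.91 ran from 0.33 to 1.55 when 1 library was left out. Chlorophyll breakdown genes did not follow, with log2 changes of 0.01 for NYC1, 0.09 for SGR1, -0.03 for PAO and 0.15 for PPH.

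**Figure D3:**
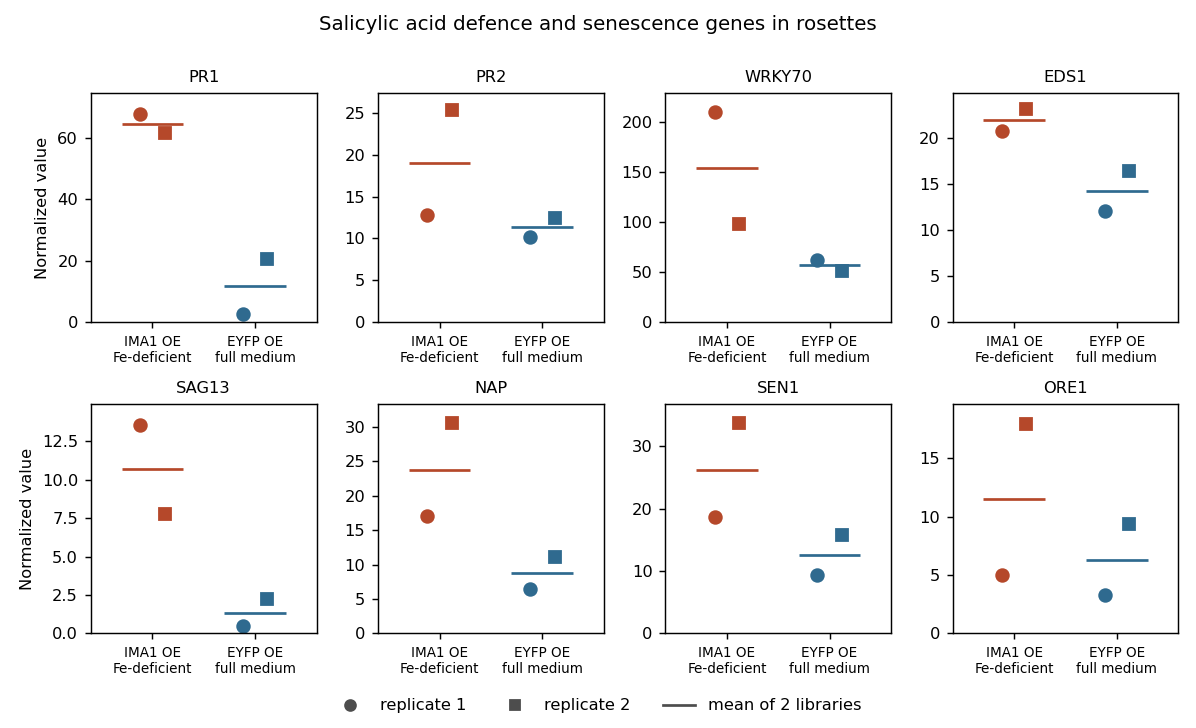
Normalized values (vertical axes, no unit, starting at 0) of 4 salicylic acid defence genes (upper row) and 4 senescence genes (lower row) in the 2 IMA1 OE Fe-deficient and the 2 EYFP OE full-medium rosette libraries; points are libraries and lines are means of 2. The IMA1 OE libraries lie above the EYFP OE libraries except for ORE1, whose groups overlap.

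Of the other hormone and pigment lists, the anthocyanin genes leaned low with much overlap and the jasmonate genes gave no clear direction. All 8 anthocyanin genes were lower in IMA1 OE, as were 10620 of the 18691 tested genes, and their median was -0.37. Yet 6 of the 8 overlapped between groups and the median ran from -0.79 to -0.07 without 1 library. UF3GT, a glycosyltransferase of the pathway, had 4.01 and 5.36 in IMA1 OE, against 6.32 and 8.94 in EYFP OE (log2 change -0.60, unadjusted p = 0.0441). Jasmonate genes split evenly, 5 higher and 5 lower. PDF1.2, a defensin, had 66.6 and 165 in IMA1 OE, against 10.97 and 69.0 in EYFP OE, with overlap (log2 change 1.87, SE 0.95, unadjusted p = 0.111). LOX2, a lipoxygenase of jasmonate synthesis, had 172 and 98.5 in IMA1 OE, against 280 and 106 in EYFP OE.

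Circadian clock genes varied within the lines rather than between them. All 11 overlapped between groups, with a list median of 0.06. LHY, a morning transcription factor, had 41.5 and 65.4 in IMA1 OE, against 17.0 and 81.0 in EYFP OE. Its partner CCA1 had 38.9 and 66.1 in IMA1 OE, against 16.9 and 77.6 in EYFP OE. TOC1, an evening gene, had 37.4 and 19.8 in IMA1 OE, against 41.3 and 14.4 in EYFP OE. In all 11 genes the library with the higher value bore the same replicate number in both lines, and in 10 of 11 the gap was larger in EYFP OE. The plants were kept in continuous light, and the hour of harvest is not given in the sources used here.

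**Figure D4:**
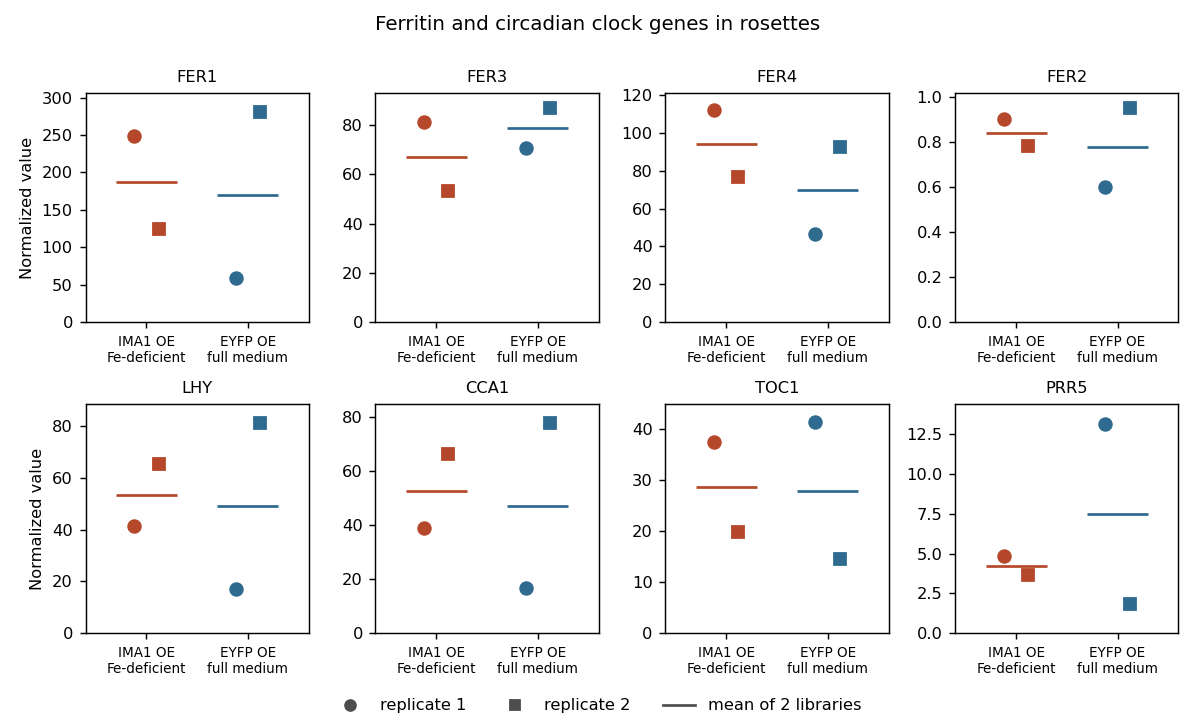
Normalized values (vertical axes, no unit, starting at 0) of 4 ferritin genes (upper row) and 4 clock genes (lower row) in the 2 IMA1 OE Fe-deficient and the 2 EYFP OE full-medium rosette libraries; points are libraries and lines are means of 2. In each panel the groups overlap, and in the clock genes replicate 1 and replicate 2 part in the same direction in both lines.

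Beyond the lists, the largest differences included several genes of defence and of unknown role. Among genes with an unadjusted p under 0.05, no overlap and a value of at least 5 in both libraries of the higher group, the 10 furthest above EYFP OE were led by AT1G47400 and PR1. NIT2, a nitrilase, came next, with 23.8 and 9.16 in IMA1 OE, against 0.73 and 2.48 in EYFP OE (log2 change 2.69, SE 0.55). AT3G29633, an uncharacterized protein, had 6.96 and 6.96 in IMA1 OE, against 0.16 and 0.80 in EYFP OE (log2 change 2.46, SE 0.25). It met the filter only through the IMA1 OE libraries. SAG13 and CSD2 were also among the 10. The others were AT4G12490, annotated as a lipid-transfer protein family member, AT5G41750, annotated as a disease resistance protein of the TIR-NBS-LRR class, AT4G16260, annotated as a glycosyl hydrolase, and AT3G48650, a transcribed pseudogene. Their log2 changes lay at 2.39, 2.02, 1.91 and 1.85.

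On the lower side AT3G01345, AT5G15360, AT2G30766, FSD1 and IRT3 were joined by 5 others. AT3G41979, an annotated 5.8S ribosomal RNA, had 126 and 368 in IMA1 OE, against 1876 and 2178 in EYFP OE. The libraries were made from polyadenylated RNA, and other ribosomal rows moved differently: AT3G41768, an 18S row, had 1376 and 6679 in IMA1 OE, against 3313 and 2294 in EYFP OE. AT2G01020, a further ribosomal RNA row, had 872 and 1780 in IMA1 OE, against 430 and 544 in EYFP OE, higher without overlap (log2 change 1.36, unadjusted p = 0.0189). ATCG00970 and ATCG01160, both chloroplast loci, carried the same values in every library, 17.2 and 38.6 in IMA1 OE, against 56.4 and 68.2 in EYFP OE. Over 113 chloroplast-encoded rows the summed value was 1810 and 7400 in IMA1 OE, against 4580 and 4690 in EYFP OE, so the 2 IMA1 OE libraries stood on both sides of the EYFP OE pair. AT1G53890, annotated as a LURP-one-like protein, had 2.67 and 4.51 in IMA1 OE, against 10.8 and 7.65 in EYFP OE, and JAL23, a jacalin-related lectin, had 3.28 and 7.56 in IMA1 OE, against 11.9 and 12.6 in EYFP OE.

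Fe-deficient IMA1 OE roots and full-medium EYFP OE roots of the same experiment share no library with the rosettes. The root change minus the rosette change was tested in 1 model over the 8 libraries (limma interaction term, Benjamini-Hochberg), and 66 of 21101 genes passed, 0.313%. The root change was the higher in 58 of these 66 (0.275% of the genes tested) and the lower in 8 (0.0379%). At an unadjusted p under 0.05 there were 1426 genes, 6.76%. A gene entered this test when it met the filter in either table, and 20 passed among genes that met it in both. Of the listed iron acquisition genes, 12 of 14 passed with the higher change in roots, as did 5 of 15 iron regulators and 1 of 23 distribution genes, FRO3. Of these 12 acquisition genes 8 were below the filter in rosettes and entered through the roots, where they are high, so their difference restates values near 0 in rosettes. The same held for 4 of the 5 regulators. The other 4 acquisition genes, FRO2, MYB10, BGLU42 and MTPA2, met the filter in both organs and also passed among those genes alone. In rosettes FRO2 met the filter only through the IMA1 OE libraries. IRT1 had a log2 change of 1.02 in rosettes and of 5.56 in roots, where its values were 980 and 759 in Fe-deficient IMA1 OE, against 13.1 and 22.8 in EYFP OE. Its root minus rosette difference was 4.54 (adjusted p = 0.00472), and a pseudocount of 0.1 gave 2.26 without a call. FRO2 had a log2 change of 0.64 in rosettes and 5.48 in roots, with a difference of 4.84 (adjusted p = 0.00173). AT3G12900, like IRT1 below the filter in rosettes, had a log2 change of 0.45 there and 7.76 in roots, a difference of 7.31 (adjusted p = 0.000201). BHLH100, also below the filter in rosettes, lay lower in IMA1 OE rosettes, at -0.58, and higher in the roots, at 5.80, a difference of 6.39 (adjusted p = 0.0146).

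CSD1, CSD2 and CCS of the superoxide dismutase list went against that pattern, since their change was larger in rosettes. CSD1 had a log2 change of 1.75 in rosettes and 0.71 in roots, where its values were 710 and 698 in IMA1 OE, against 435 and 428 in EYFP OE. The root minus rosette difference was -1.04 for CSD1 (SE 0.12, adjusted p = 0.0307), -1.68 for CSD2 (SE 0.19, adjusted p = 0.0269) and -1.12 for CCS (SE 0.12, adjusted p = 0.0204). These 3 were among the 8 genes of the whole test on that side. Without any 1 of the 8 libraries the differences stayed between -1.06 and -1.03 for CSD1, between -1.84 and -1.53 for CSD2 and between -1.19 and -1.06 for CCS. The calls were less steady: CSD1 lost its call without each of the 8 libraries (adjusted p 0.0505 to 0.273), and CSD2 and CCS kept theirs only without rosette EYFP OE replicate 1 and without rosette EYFP OE replicate 2. FSD1 was lower in both organs, with a log2 change of -2.59 in rosettes and -1.97 in roots, where it had 35.0 and 69.3 in IMA1 OE, against 167 and 232 in EYFP OE. The difference of 0.62 for FSD1 did not pass (adjusted p = 0.99). The differences of FSD2, FSD3, CSD3 and MSD1 lay between 0.01 and 0.14 and did not pass either.

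COPT2 differed in direction between the organs. Its log2 change was -1.43 in rosettes and 3.33 in roots, where its values were 30.1 and 28.3 in IMA1 OE, against 1.95 and 2.07 in EYFP OE. The root minus rosette difference was 4.76 (SE 0.29, adjusted p = 0.00173), and it passed without each of the 8 libraries, at 4.47 to 5.05. COPT2 rose in roots (limma adjusted p = 0.000394 in the root comparison), while its rosette change did not pass the adjusted threshold. YSL2 and NAS4 lay lower in both organs, with log2 changes of -1.52 and -0.77 in rosettes and -1.09 and -1.14 in roots. The salicylic acid defence list had a median of 0.62 in rosettes and 0.06 in roots. PR1 was listed at 0.02 in all 4 root libraries, and the difference between organs did not pass for any of the 8 members.

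**Figure D5:**
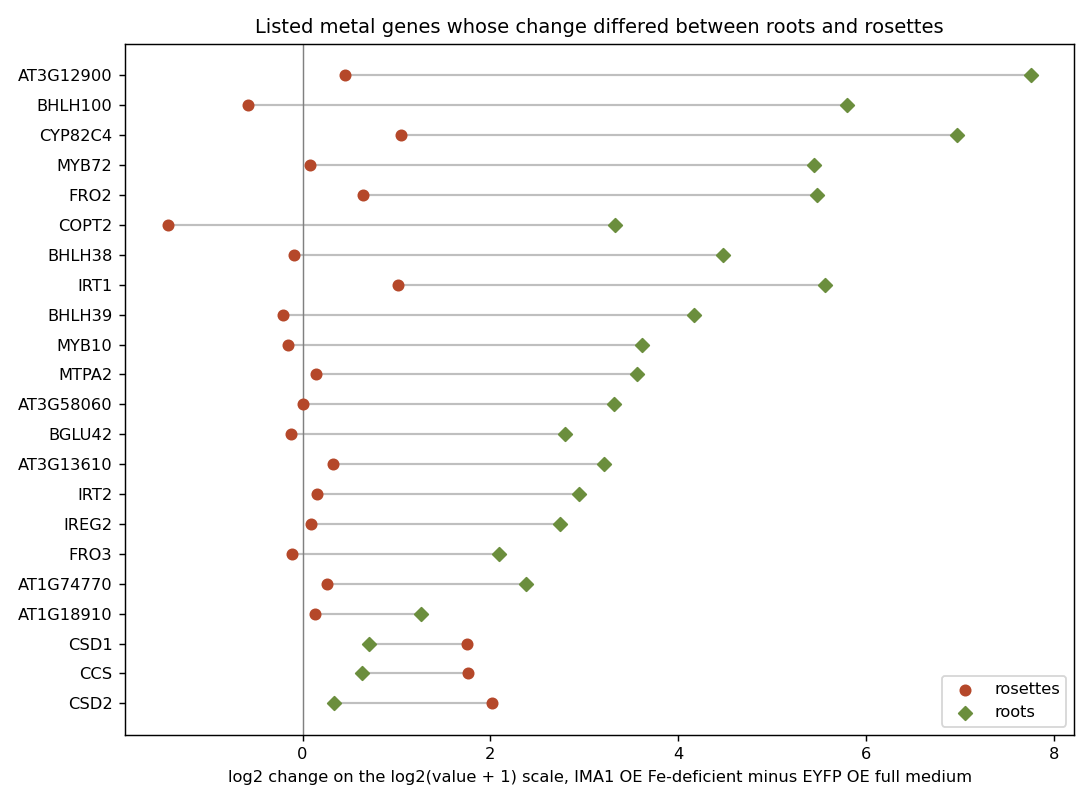
Log2 change between IMA1 OE Fe-deficient and EYFP OE full-medium plants (horizontal axis) in rosettes (circles) and roots (diamonds) for the 22 genes of the iron, copper and superoxide dismutase lists whose root minus rosette difference had an adjusted p under 0.05, 12 of which were below the filter on low values in rosettes. The change is larger in roots for 19 genes, and for CSD1, CCS and CSD2 it is larger in rosettes; COPT2 lies on opposite sides of 0.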

How the data were processed

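Polyadenylated RNA of 12 samples was sequenced from stranded libraries, per the labels' protocols. The tools Bowtie2 2.0.6, edgeR 3.12.1 and limma 3.26.9 and the build TAIR10 are named in the submitters' processing notes, with no roles given. The authors deposited, for each comparison, normalized signal values for every gene and library (TMM in the table name, no unit given), a p-value from a Z-test per the file headers, and a log2 fold change. The signal holds no read counts, so library depth is unknown. Of the 202 genes with a value above 500, 39 had a value shared exactly by 2 or more libraries, which could hide differences among the highest genes.

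Columns were matched to samples through their headings and the labels, with 0 per-sample columns unused. Values were analysed as log2(value + 1), so that changes of low genes come out too small. Genes that reached 1 in 2 or more of the 4 libraries were fitted in R 4.3.3 with the lmFit and eBayes functions of limma 3.58.1 and an intensity trend. Tests were two-sided, p-values were adjusted by Benjamini-Hochberg and the threshold was 0.05. The scripts were tested on simulated data with known changes. Tables were normalized separately, so levels were tested within 1 table only, and the root minus rosette test compared changes taken within each table.

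Genes named are those past the threshold, the 10 largest differences in each direction by the rule given in the text, and members of 20 lists drawn from general knowledge. All 220 list loci were found in the RefSeq gene table (TAIR10.1). The rule left out 36 genes near 0 in one library and at 4 or more in the other library of a group. The members and lists were chosen with earlier results of these data known. Sequences were read from the RefSeq genome. Alternatives were another pseudocount, no filter, no trend, the replicate number as a block, and each library left out in turn.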

Additional observations from a re-analysis of the deposited data

Results flagged for a closer look

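The results below were picked out because the root change and the rosette change differed in a test of the difference itself (limma interaction term over 8 libraries, adjusted p under 0.05). Each value is the root log2 change minus the rosette log2 change, and none is explained here.

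Among regulators the difference was 4.58 for BHLH38, 4.39 for BHLH39 and 6.39 for BHLH100. It was 2.11 for AT1G74770 and 1.12 for AT1G18910, both annotated as zinc ion binding proteins. For transporters and reductases it was 4.54 for IRT1, 2.79 for IRT2, 4.84 for FRO2, 2.2 for FRO3, 3.42 for MTPA2, 3.32 for AT3G58060 and 2.65 for IREG2. For enzymes and factors of coumarin synthesis and release it was 2.89 for AT3G13610, 7.31 for AT3G12900, 5.93 for CYP82C4, 3.78 for MYB10, 5.37 for MYB72 and 2.92 for BGLU42. Of these, BHLH38, BHLH39, BHLH100, AT1G74770, IRT1, IRT2, AT3G58060, IREG2, AT3G13610, AT3G12900, CYP82C4 and MYB72 were below the filter in rosettes. They entered through the roots, where they are high, so their differences restate root changes beside low rosette values.

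Among copper and zinc genes the difference was 4.76 for COPT2 and 3.04 for HMA3, and it was -1.04 for CSD1, -1.68 for CSD2, -1.12 for CCS and -1.61 for ZIP2. ZIP2 and HMA3 were below the filter in rosettes, with at most 0.35 and 0.31 in any rosette library, and entered through the roots. Outside the metal lists the difference was -1.42 for WRKY33, a defence transcription factor chosen after the data were seen, and -2.46 for AT3G29633. AT3G29633 was listed at 0.16 in every root library and entered through the rosettes. Of these 26 genes, MYB10, BGLU42, COPT2 and FRO2 kept their call under each alternative, though FRO2 met the rosette filter only through IMA1 OE. AT3G13610, AT3G12900, MYB72 and AT3G58060 kept theirs under the alternatives that could be run for them. These genes were below the filter in rosettes and so have no value with the filter in both tables.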

How the results depend on the processing

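With 2 libraries a group, single libraries decide calls. The rosette comparison had 1 gene past the threshold, and 1 with a pseudocount of 0.1, without the filter on low values, without the intensity trend and with the replicate block. Leaving out 1 library gave 0 to 4, with 0 without either IMA1 OE library, 2 without EYFP OE replicate 1 and 4 without EYFP OE replicate 2. The authors' deposited p-value in place of limma gave 319. The count at an unadjusted p under 0.05 was 966, and it ran from 576 to 1342 without 1 library, the lowest without IMA1 OE replicate 1. For root minus rosette, 66 genes became 33 with a pseudocount of 0.1, 136 without the filter and 20 for genes that met the filter in each table. Without 1 library that count ran from 30 to 94, with 32 without root IMA1 OE replicate 1, 30 and 32 without root EYFP OE replicates 1 and 2, and 33 without rosette IMA1 OE replicate 1. The CSD1 difference also lost its call with a pseudocount of 0.1 and with the filter in both tables, and the CSD2 difference without the filter. WRKY33 kept its call in none of the 5 alternatives other than leaving out a library. No named gene changed direction in a way that reversed a call. Of 44 genes named with an unadjusted p under 0.05 in rosettes, the log2 change of 10 moved by over 1.5 times without 1 library, and none changed sign.

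The replicate numbers occur in both lines, and the labels do not say that a number marks a shared batch. Across tested genes the replicate difference in IMA1 OE correlated with that in EYFP OE at 0.45, with 2 pairs only. With the replicate block the count at an unadjusted p under 0.05 was 2192 and the root minus rosette count was 74.

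Depth is unknown, so values near 0 cannot be told from unread genes. IMA1 OE is 1 line, EYFP OE is named here without a line number, and line and medium were not separated.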

Other observations

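A set of 5 defence regulators was looked up after the values had been seen, so it carries no test of its own. WRKY46, a defence transcription factor, had normalized values of 25.1 and 22.3 in IMA1 OE rosettes, against 7.5 and 7.67 in EYFP OE rosettes (log2 change 1.52, SE 0.12, unadjusted p = 8.29e-05, limma adjusted p = 0.31). WRKY33 had 75.4 and 65.3 in IMA1 OE, against 23.1 and 26.7 in EYFP OE, and WRKY53 had 10.6 and 9.72 in IMA1 OE, against 4.58 and 4.22 in EYFP OE. SARD1, which activates the salicylic acid synthase gene, had 26.5 and 21.1 in IMA1 OE, against 5.35 and 9.21 in EYFP OE. DMR6, a hydroxylase that turns over salicylic acid, had 42.7 and 35.2 in IMA1 OE, against 16.1 and 14.4 in EYFP OE. In all 5 genes the IMA1 OE libraries were higher without overlap, as were 13.8% of all tested genes. Since the 5 were looked up with their values known, this count, the p-value and the median below give no support. On full medium the IMA1 OE rosettes had 29.6 and 33.5 for WRKY46 and 64.3 and 61.4 for WRKY33, in the table that shares the EYFP OE libraries. The median log2 change of the 5 was 1.46 in rosettes and 0.10 in roots.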
